A study of Homo sapiens with 12 samples.

Results

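The 5 genes described here, BTG1, BTG2, BTG3, TOB1 and TOB2, are the members of the BTG/TOB family of antiproliferative genes that were followed in human A375 melanoma cells. They were taken by their GENCODE symbols, matched through the Ensembl gene IDs, from 60675 gene rows in each of 2 deposited count tables. All 5 had enough counts to be tested in both assays. Another family gene, BTG4, known from oocytes, had 0 counts in all 12 libraries and was not tested.

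A375 is an established melanoma line with an activated BRAF gene. The study compared it with A375/211, a derivative that overexpresses miR-211, a microRNA encoded by MIR211. Its vector, promoter and origin from 1 clone or a pool are points not given in the sources used here. With 1 line of each kind, an effect of miR-211 and other differences between the lines cannot be told apart. Total RNA was sequenced from 2 libraries per line, labelled a and b, from cells without further treatment. For BRIC-seq, cells of both lines took up the nucleoside analog 5-bromouridine (BrU) for 24 h. BrU-carrying RNA was then pulled down at 0, 1, 3 and 6 h after labelling, in 1 library per line and time. RNA made during labelling is thus followed as it disappears. The question was which transcripts differ between the lines in level or in the rate at which they are lost.

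Proteins of the BTG/TOB family share an N-terminal domain that binds the deadenylases CNOT7 and CNOT8, subunits of the CCR4-NOT complex. Through that contact they bring poly(A) tail removal to messenger RNAs, and they slow entry into the cell cycle when overexpressed. BTG1 and BTG2 are short proteins that are close relatives of each other. BTG3 is the nearest relative of BTG4. TOB1 and TOB2 carry a long C-terminal part that also binds the cytoplasmic poly(A) binding protein PABPC1. BTG2 is known as an immediate early gene, and the RNAs of immediate early genes are known for short lives.

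The RNA-seq libraries held 20847481 to 34130525 counts and the BRIC-seq libraries 2671651 to 7279038, with more counts at later times. MIR211 (chr15:31065032-31065141 in GENCODE 44, hg38) had no count in either RNA-seq library of A375, and 36 and 18 counts in those of A375/211. In BRIC-seq it had 0 counts in the 4 A375 libraries and 9, 11, 2 and 3 in the A375/211 libraries from 0 to 6 h. All 10 melanocyte and melanoma markers listed had RNA-seq counts in both lines, with a summed level of 716 to 844 CPM (the usual depth-scaled read count, here with TMM-scaled library sizes) across the 4 libraries. Within that sum single markers differed between the lines. MITF had 253 and 244 CPM in A375 and 38.8 and 49.0 in A375/211. S100B had 32.6 and 29.0 CPM in A375 and 94.5 and 99.99 in A375/211. TYR and MLANA had at most 0.25 CPM. Of 5 keratinocyte, 5 leukocyte and 5 endothelial markers, at most 2 of each list had a count in either line, and KRT5, PTPRC, CD3E, PECAM1 and CDH5 were at 0. All 5 fibroblast markers had counts, with a summed level of 25.7 to 61.3 CPM. Mitochondrially encoded genes took 18.1% to 22.2% of BRIC-seq counts at 0 h and 32.4% to 34.1% at 6 h.

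The mature strand of miR-211 is shown because A375/211 was made to overexpress it. The capitals mark its seed, bases 2 to 8 from the 5′ end, through which a microRNA pairs with its targets (RefSeq, GRCh38.p14, chr15:31065095-31065116, minus strand):
hsa-miR-211-5p: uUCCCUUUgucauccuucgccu

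The DNA letters that pair with this seed are AAAGGGA. They were searched on the sense strand of the 3′ untranslated region (UTR) of each gene's canonical transcript in GENCODE 44. None of the 5 UTRs held them. Of UTRs of like length, 37.4% held the letters at the length of BTG1 (3802 bases), 23.9% at BTG2 (2164 bases), 3.99% at BTG3 (440 bases), 8.04% at TOB1 (757 bases) and 32.2% at TOB2 (2817 bases). The absence says only that these letters are not in these windows.

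Other short UTR motifs are known from unstable messenger RNAs. They are shown as a description, with the courses of the 5 genes in the chase already known. A link between motifs and courses was not tested. The letters TGTANATA are those bound by Pumilio proteins. They occurred at 4 places in the UTR of BTG1 and at 0 in the other 4 genes. At least 1 place was found in 50% of UTRs of the length of BTG1, and at least 4 in 2.56%. Of the 4, 3 are printed, with the 8 letters in capitals (hg38, chromosome 12, minus strand, written 5′ to 3′ in the sense of the transcript):
BTG1 at chr12:92142978-92143005: gaagatgctcTGTATATAcatgtttagg
BTG1 at chr12:92142627-92142654: acctgcaagaTGTACATAaaaatcacat
BTG1 at chr12:92140552-92140579: tatatgggacTGTAAATAgagaaatctg

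The letters TATTTAT are the core of the AU-rich elements known from immediate early messages. They occurred once in BTG1, once in BTG2 and once in TOB2, at no place in TOB1, and at 2 places in BTG3. At least 2 places were found in 2.28% of UTRs of the length of BTG3. The places in BTG1, BTG3 and TOB2 are printed, with capitals for the 7 letters, which contain the shorter ATTTA (hg38, minus strand, written in the sense of the transcript):
BTG1 at chr12:92140771-92140797: atagatttctTATTTATctgaaggtat
BTG3 at chr21:17593832-17593858: tggacttgagTATTTATatattgtgca
BTG3 at chr21:17593728-17593754: gtatgtaagtTATTTATatacaaggaa
TOB2 at chr22:41435381-41435407: cgcaagtcctTATTTATatgtgaggct

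TATTTAT was found at least once in 61.4%, 45.1%, 12.6%, 21.6% and 52.8% of UTRs of the length of BTG1, BTG2, BTG3, TOB1 and TOB2. The shorter ATTTA occurred at 4 places in TOB1, and at 4 or more in 12.7% of UTRs of its length. A match is a description of the letters and not of a site in use.

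In total RNA, BTG1 had the highest mean level per length of transcript and BTG2 the lowest, in both lines. On the scale of CPM per kilobase of exon, A375 held a mean of 33.0 for BTG1 (ENSG00000133639, chr12:92140278-92145846, minus strand), with an SD of 20.9 over n = 2 libraries. BTG3 (ENSG00000154640, chr21:17593653-17612945, minus strand) stood at 9.65 ± 0.0903 (SD, n = 2). TOB2 (ENSG00000183864, chr22:41433494-41446801, minus strand) stood at 8.73 ± 0.315 (SD, n = 2). Lower in the order of means were the remaining genes. TOB1 (ENSG00000141232, chr17:50862223-50867978, minus strand) stood at 5.79 ± 1.32 (SD, n = 2), and BTG2 (ENSG00000159388, chr1:203305491-203309602, plus strand) at 3.00 ± 0.798 (SD, n = 2). In A375/211 the order of the means was the same, with means of 33.2 ± 27.9 for BTG1, 12.4 ± 2.89 for BTG3, 8.93 ± 0.898 for TOB2, 7.78 ± 1.16 for TOB1 and 5.63 ± 1.94 for BTG2 (SD, n = 2). Neighbours in that order did not overlap in A375. In A375/211, BTG1 overlapped BTG3, TOB2 overlapped TOB1 and TOB1 overlapped BTG2, and only BTG3 and TOB2 did not overlap. In library b of A375/211, BTG3 (14.5) was above BTG1 (13.5) and BTG2 (6.998) above TOB1 (6.961), so the mean of BTG1 there rests on library a (52.96).

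**Figure D1:**
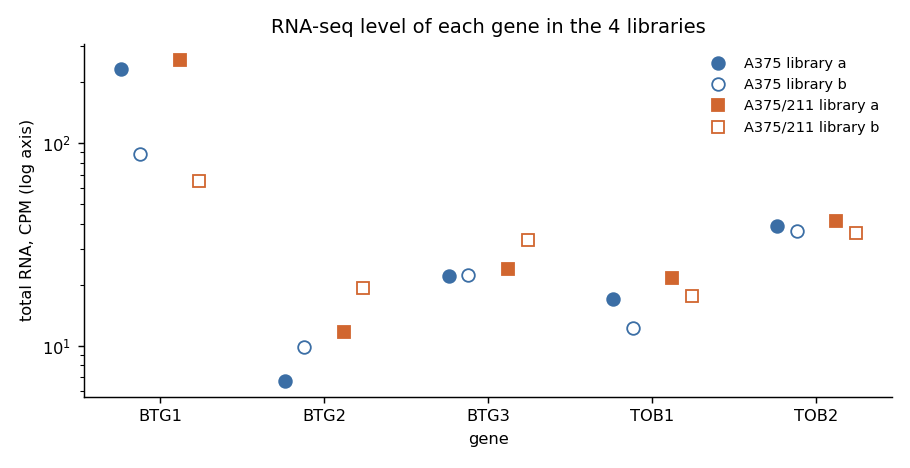
Total RNA of each gene in CPM (log axis) in the 4 RNA-seq libraries, with filled symbols for library a and open symbols for library b, circles for A375 and squares for A375/211. For BTG1 the libraries differ by letter (232 and 257 CPM in a, 88.5 and 65.4 CPM in b) and not by line, while for BTG2, BTG3 and TOB1 both squares lie above both circles.

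None of the 5 genes differed in total RNA between the lines by the test across all genes. BTG1, first found at a leukemia translocation and a restraint on cell division, had 232 and 88.5 CPM in libraries a and b of A375 and 257 and 65.4 CPM in those of A375/211. Library a was thus above library b by 2.62-fold in A375 and by 3.93-fold in A375/211, and the lines overlapped. A higher ratio of a to b was found for 3.99% of the 19258 genes tested in A375 and for 1.32% in A375/211. The log2 difference, A375/211 minus A375, was 0.01 ± 0.77 (SE), with an adjusted p of 0.998 by edgeR's quasi-likelihood F test with Benjamini-Hochberg adjustment over all genes tested (edgeR below). Its direction rests on single libraries: without library a of A375/211 the value was -1.28, and without library a of A375 it was 0.86.

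BTG2, induced by growth signals, had 6.73 and 9.84 CPM in A375 and 11.7 and 19.3 CPM in A375/211. Both A375/211 libraries lay above both A375 libraries. The log2 difference was 0.90 ± 0.35 (SE), which did not pass (edgeR unadjusted p = 0.0499, adjusted p = 0.457).

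BTG3 had 22.1 and 22.4 CPM in A375 and 24.0 and 33.4 CPM in A375/211. Again the 2 lines did not overlap, though the lower A375/211 library stood close to A375. The log2 difference was 0.37 ± 0.23 (SE; edgeR adjusted p = 0.672).

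TOB1, named as a transducer of the receptor ERBB2, had 16.9 and 12.2 CPM in A375 and 21.7 and 17.5 CPM in A375/211. The groups lay next to each other without overlap, with a log2 difference of 0.43 ± 0.25 (SE; edgeR adjusted p = 0.644). TOB2, its close relative, had 38.9 and 37.0 CPM in A375 and 41.5 and 36.0 CPM in A375/211. These groups overlapped, with a log2 difference of 0.03 ± 0.17 (SE; edgeR adjusted p = 0.978).

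Of the 5 genes, 0 passed, against 0.379% of all genes tested in either direction. At an unadjusted p under 0.05 the count was 1 (BTG2), and by DESeq2 it was 0. Both A375/211 libraries were above both A375 libraries for 3 genes (BTG2, BTG3, TOB1), an arrangement that 20.7% of all tested genes shared. The labels do not say whether a and b came from separate cultures, so the p-values measure the spread between these libraries, which may be technical. In bulk RNA, fewer cells that express a gene and less RNA per cell cannot be told apart.

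Over the chase, the labelled RNA of BTG1, BTG2, TOB1 and TOB2 fell steeply and that of BTG3 did not. Counts are small at late times, so each value is given with its count. BTG1 had 72.3, 55.7, 0.956 and 0 CPM at 0, 1, 3 and 6 h in A375, from 248, 266, 7 and 0 counts. In A375/211 it had 193, 139, 24.2 and 17.7 CPM, from 716, 707, 142 and 73 counts. After 1 h, 77.0% of BTG1 was left in A375 (95% interval 64.5% to 91.9%) and 72.0% in A375/211 (64.8% to 80.0%). By 3 h it had dropped to 1.32% of its 0 h level in A375 (0.526% to 2.77%) and to 12.6% in A375/211 (10.4% to 15.1%). At 6 h it was at least 121-fold below its 0 h level in A375, with the 0 set at a floor of 3 counts in that library. It was at 9.19% in A375/211 (7.12% to 11.7%). These intervals are exact, conditional on the summed counts, and cover counting error only. Here and below, a share left is a ratio of CPM, relative to a labelled total that itself shrinks, and not an amount of RNA.

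BTG2 had 47.8, 26.2, 2.19 and 1.19 CPM in A375, from 164, 125, 16 and 6 counts. In A375/211 it had 18.3, 5.89, 0 and 1.46 CPM, from 68, 30, 0 and 6 counts. Of the 5 genes, BTG2 had the lowest share left after 1 h in each line, at 54.7% in A375 (95% interval 43.0% to 69.5%) and 32.2% in A375/211 (20.2% to 50.1%). At 3 h it stood at 4.57% in A375 (2.55% to 7.65%). In A375/211 the count of 0 puts it at least 35.7-fold below its 0 h level, with the same floor of 3 counts.

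BTG3 had 15.7, 17.4, 19.8 and 12.9 CPM in A375, from 54, 83, 145 and 65 counts. In A375/211 it had 14.3, 18.1, 23.6 and 9.95 CPM, from 53, 92, 138 and 41 counts. The 3 h library was the highest of each line. It stood at 126% of 0 h in A375 (95% interval 91.5% to 175%) and at 165% in A375/211 (119% to 231%), and the 6 h libraries stood at 82.1% (56.4% to 120%) and 69.7% (45.2% to 107%).

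TOB1 had 39.9, 38.3, 3.01 and 1.19 CPM in A375, from 137, 183, 22 and 6 counts. In A375/211 it had 39.3, 39.1, 5.46 and 2.67 CPM, from 146, 199, 32 and 11 counts. At 1 h the CPM of TOB1 was near that at 0 h in both lines, with 95.9% left in A375 (95% interval 76.4% to 121%) and 99.4% in A375/211 (79.9% to 124%). At 3 h, 7.53% was left in A375 (4.57% to 11.9%) and 13.9% in A375/211 (9.17% to 20.5%).

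TOB2 had 22.5, 22.2, 2.19 and 2.19 CPM in A375, from 77, 106, 16 and 11 counts. In A375/211 it had 27.7, 28.5, 3.24 and 2.43 CPM, from 103, 145, 19 and 10 counts. Its course was that of TOB1 up to 3 h, with 98.8% left at 1 h in A375 (95% interval 73.0% to 134%) and 103% in A375/211 (79.2% to 133%). At 3 h 9.74% was left in A375 (5.30% to 16.8%) and 11.7% in A375/211 (6.77% to 19.2%). From 3 to 6 h it stayed near that level, at 9.75% (4.67% to 18.4%) and 8.75% (4.07% to 16.8%).

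**Figure D2:**
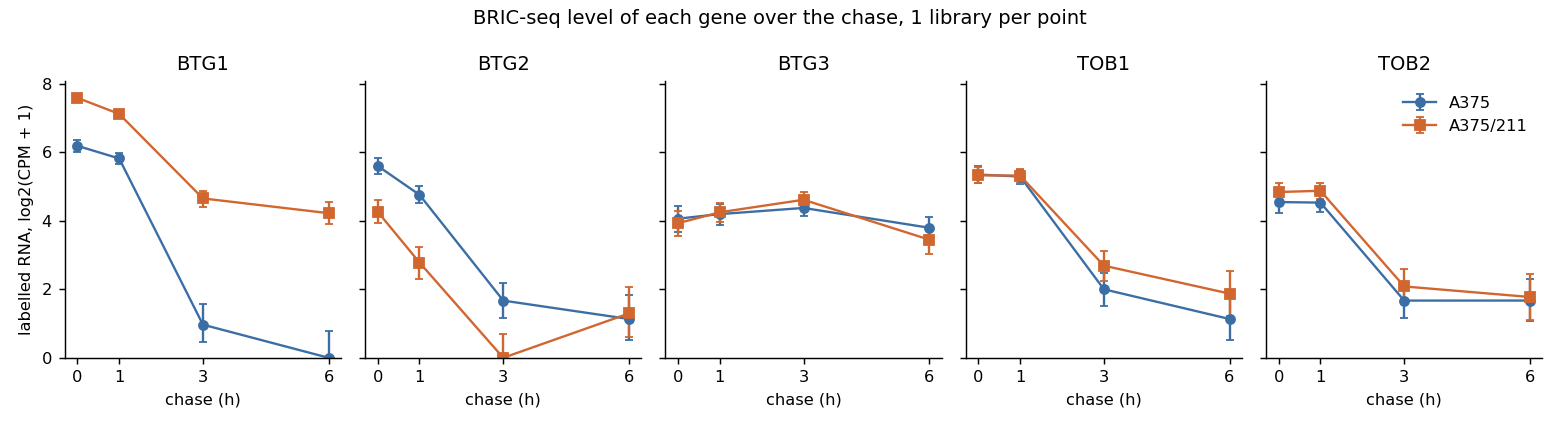
Labelled RNA of each gene as log2(CPM + 1) against hours of chase, 1 library per point, circles for A375 and squares for A375/211, with 95% exact Poisson intervals for counting error. BTG1, BTG2, TOB1 and TOB2 drop between 1 and 3 h in both lines, BTG3 stays between 9.95 and 23.6 CPM, and the BTG1 curves of the lines lie apart throughout.

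The chase was also fitted as a slope per gene. A slope here is the hourly change in log2 level against the labelled total after scaling. That total itself shrinks, so slopes order the genes and give no absolute rate of decay. With both lines fitted together, the mean slope was -0.90 ± 0.19 (SE) for BTG2 (edgeR adjusted p = 0.00334). It was -0.85 ± 0.12 for TOB1 (edgeR adjusted p = 0.000372) and -0.85 ± 0.19 for BTG1 (edgeR adjusted p = 0.00481). TOB2 fell by 0.68 ± 0.12 per hour (edgeR adjusted p = 0.00136). Among these 4, neighbours in the order differed by less than the larger of their SEs. BTG3 was at -0.07 ± 0.06 and did not pass (edgeR adjusted p = 0.395).

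Thus 4 of the 5 genes were called lower, where 34.4% of all 13703 genes tested were called lower and 29.9% higher. DESeq2 also called 4. The median mean slope was -0.85 for the 5 genes and -0.04 for all genes tested. BTG2 ranked 76, TOB1 101, BTG1 109 and TOB2 367 from the lowest of all slopes, and BTG3 6462. The share of called genes that were lower depends on the scaling: 53.5% in the fit reported, 79.4% when libraries were scaled by total counts and 99.9% when the summed glycolytic messages were held constant. These scalings moved the median of all mean slopes by -0.16 and -0.46 per hour, and BTG3 then had mean slopes of -0.23 and -0.52 that passed (edgeR adjusted p = 0.0210 and 0.000279).

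In A375 alone, BTG1 had a slope of -2.07 ± 0.29 (SE; edgeR adjusted p = 0.00226), the second lowest of all genes tested, a value that depends on how the 0 count at 6 h is fitted. BTG2 had -1.004 ± 0.28 (edgeR adjusted p = 0.0230), TOB1 -0.99 ± 0.18 (edgeR adjusted p = 0.00499) and TOB2 -0.67 ± 0.18 (edgeR adjusted p = 0.0220). BTG3 had -0.05 ± 0.09 (edgeR adjusted p = 0.691). The 4 calls compare with 24.2% of all genes called lower. Of all called genes, 51.3% were lower, and 80.7% and 99.9% with total counts and glycolytic messages as the scale. Without the A375 6 h library, none of the 5 passed in A375, with an edgeR adjusted p of 0.0922 for BTG1 and TOB1. No gene of the whole table passed then. Without the A375 0 h library 2 of the 5 passed, and without the A375 1 h library 3, with BTG2 at an edgeR adjusted p of 0.0519.

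In A375/211 alone, TOB1 had -0.74 ± 0.16 (SE; edgeR adjusted p = 0.0109), TOB2 -0.69 ± 0.19 (edgeR adjusted p = 0.0220) and BTG1 -0.61 ± 0.15 (edgeR adjusted p = 0.0161). BTG2 had -0.75 ± 0.29 and did not pass (edgeR adjusted p = 0.0693), and BTG3 had -0.08 ± 0.10 (edgeR adjusted p = 0.512). The 3 calls compare with 21% of all genes called lower. Of all called genes, 48.9% were lower, and 85.9% and 99.9% under the other 2 scales. Without the A375/211 6 h library 0 of the 5 passed (and 0 of all genes), without its 0 h library 1 passed, and without its 3 h library 4 passed, BTG2 then with a slope of -0.57 (edgeR adjusted p = 0.0385).

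The falls that passed for BTG1, BTG2, TOB1 and TOB2 were between 1 and 3 h. In a fit of the times as steps, with the 2 lines standing in for replicates, none of the 5 genes passed from 0 to 1 h, a step at which no gene of the table did. The log2 differences were -0.41 ± 0.82 (SE) for BTG1, -1.20 ± 0.55 for BTG2, 0.24 ± 0.23 for BTG3, -0.04 ± 0.27 for TOB1 and 0.01 ± 0.19 for TOB2. The signs for TOB1 and TOB2 changed with the scaling or the filter. At this step edgeR called 0 of the 5, with 0 at an unadjusted p under 0.05 and 0 by DESeq2, and it called 0% of all genes, so the misses do not show that levels held. The counting intervals for BTG1 and BTG2 at 1 h, lie below the 0 h level in both lines. From 1 to 3 h, TOB2 fell by 3.22 ± 0.23 on the log2 scale (edgeR adjusted p = 0.00178) and TOB1 by 3.23 ± 0.31 (edgeR adjusted p = 0.00309). BTG2 fell by 3.81 ± 0.72 (edgeR adjusted p = 0.0134) and BTG1 by 3.63 ± 0.96 (edgeR adjusted p = 0.0348). BTG3 stood at 0.29 ± 0.22 (edgeR adjusted p = 0.348), a sign that reversed to -0.69 with glycolytic messages as the scale. That value passed (edgeR adjusted p = 0.0361), so on that scale all 5 genes were called lower at this step.

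The 4 calls from 1 to 3 h compare with 16.1% of all genes called lower at that step. Between 0.394% (BTG2) and 0.912% (TOB2) of all genes had a lower value than these 4. The TOB1 and TOB2 calls held in all 14 alternatives run. The BTG1 and BTG2 calls did not: without either 1 h library or without the A375/211 3 h library neither passed, with edgeR adjusted p of 0.158 and 0.121 without the A375 1 h library, and BTG1 also missed without the A375 3 h library (0.141) and with no filter on low counts (0.0705). The BTG2 value includes a count of 0 in A375/211. Of all genes called at this step, 55.5% were lower, against 80.2% and 99.7% with total counts and glycolytic messages as the scale.

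From 3 to 6 h BTG3 was the gene that passed, and it fell by 0.92 ± 0.22 on the log2 scale (edgeR adjusted p = 0.0211). At these times BTG1 in A375, and BTG2, TOB1 and TOB2 in both lines, had only 0 to 32 counts. A further fall of those genes could therefore be missed, and the value of TOB1 was lower than that of BTG3. TOB1 stood at -1.13 ± 0.40 (edgeR adjusted p = 0.0679), BTG1 at -0.50 ± 1.01 (0.732), TOB2 at -0.21 ± 0.27 (0.690) and BTG2 at 0.39 ± 0.96 (0.782). At this step 17.8% of all genes were called lower, so 1 of 5 is near the background. Lower genes made up 47.4% of all called, and 85.5% and 99.9% under the other 2 scales. The BTG3 call was lost without either 3 h library or without the A375/211 6 h library (edgeR adjusted p = 0.142 without the A375/211 3 h library). The share of mitochondrially encoded counts rose over the same hours, and its part in these values was not tested. With mitochondrially encoded genes removed before scaling, the BTG3 value was -0.92.

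**Figure D3:**
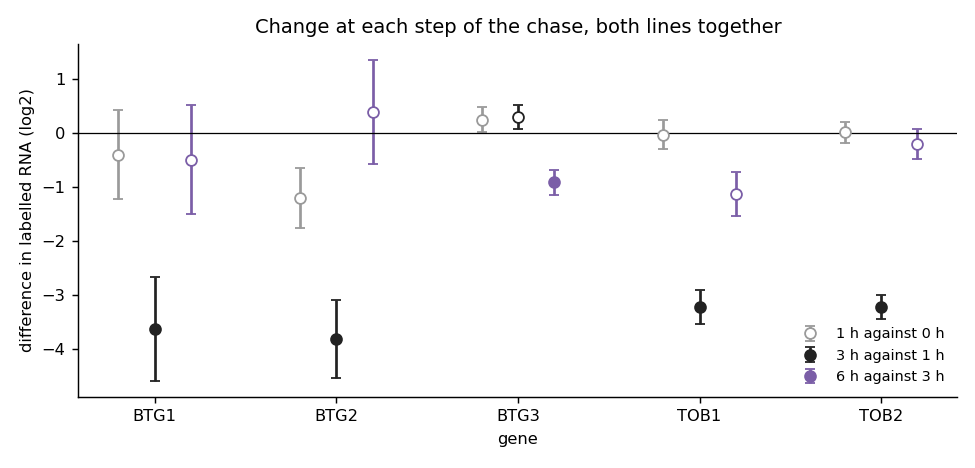
Difference in labelled RNA (log2, ± SE) at each step of the chase for each gene, both lines fitted together. Filled points passed the test across all genes and open points did not; those for 3 h against 1 h lie between -3.81 and -3.22 for BTG1, BTG2, TOB1 and TOB2 and at 0.29 for BTG3.

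In labelled RNA, with 1 library per line and time, BTG1 and BTG2 were called different between the lines, in opposite directions. Both calls were close to the threshold. At matched times, BTG1 was higher in A375/211 than in A375 by 2.67-fold at 0 h (95% interval for counting error 2.30 to 3.09) and by 2.49-fold at 1 h (2.16 to 2.88). It was 25.3-fold higher at 3 h (11.99 to 64.2), from 142 against 7 counts. At 6 h it was at least 29.7-fold higher, from 73 against 0 counts with a floor of 3 counts. BTG1 in A375/211 was thus above A375 at 4 of 4 times, while its total RNA overlapped between the lines. Libraries a and b of the same line differed for BTG1 in total RNA by 2.62-fold in A375 and 3.93-fold in A375/211.

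BTG2 was lower in A375/211 at 0, 1 and 3 h. Its ratio to A375 was 0.383 at 0 h (95% interval 0.284 to 0.511) and 0.225 at 1 h (0.146 to 0.338). At 3 h it was at least 4.27-fold lower, from 0 against 16 counts. At 6 h both lines had 6 counts, with a ratio of 1.22 (0.326 to 4.56). In total RNA, both A375/211 libraries were instead above both A375 libraries for BTG2.

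The ratios of BTG3 lay between 0.769 and 1.19 over the 4 times, and each interval included 1. Those of TOB2 lay between 1.11 and 1.48 with intervals that also included 1. TOB1 had ratios of 0.984, 1.02, 1.82 and 2.24, of which that at 3 h had an interval above 1 (1.02 to 3.28).

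**Figure D4:**
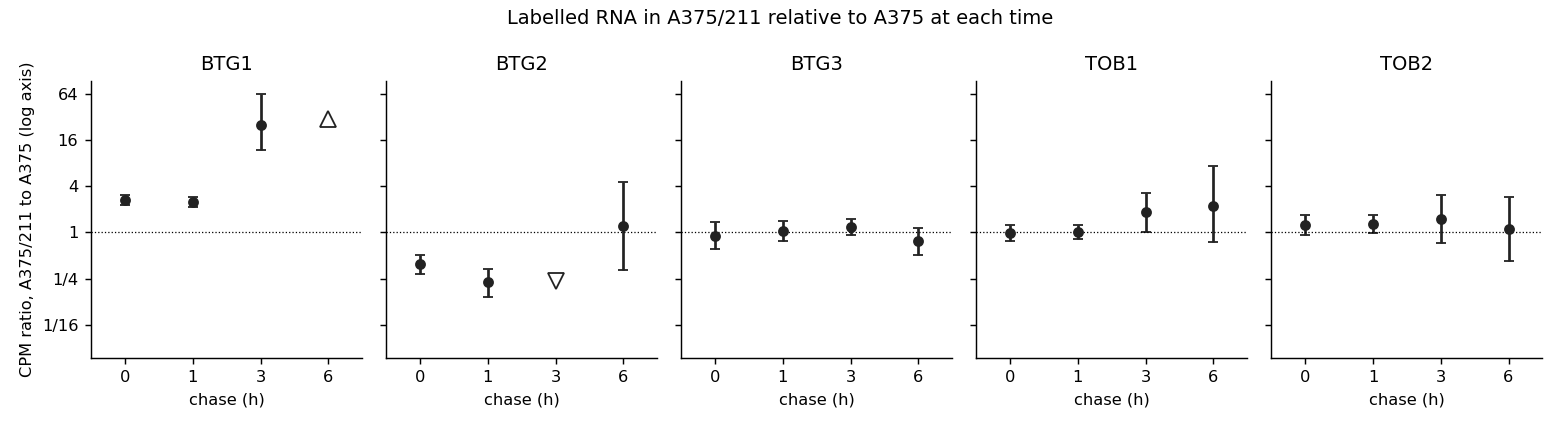
Ratio of CPM in A375/211 to A375 (log axis) at each time of the chase, with 95% exact intervals for counting error; open triangles are bounds where a library had 0 counts (upward, at least this ratio; downward, at most this ratio). BTG1 lies above 1 at all 4 times, BTG2 lies below 1 at 0, 1 and 3 h, and BTG3 and TOB2 have intervals that include 1.

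In the fit of the lines over matched times, where the 4 times stand in for replicates, BTG1 was higher in A375/211 by 2.39 ± 0.68 (log2, SE; edgeR adjusted p = 0.0467). BTG2 stood at -1.69 ± 0.49, lower in A375/211 (edgeR adjusted p = 0.0498). TOB2 stood at 0.35 ± 0.16 (edgeR adjusted p = 0.153), TOB1 at 0.31 ± 0.22 (0.520) and BTG3 at -0.04 ± 0.16 (0.900). Called in either direction were 25.9% of all genes tested, so 2 of 5 is not far from the background. Of all called genes 47.4% were lower in A375/211, against 58.4% with total counts and 86.1% with glycolytic messages as the scale. Both calls sit at the threshold. That of BTG1 passed in 4 of 14 alternatives (adjusted p between 0.0202 and 0.124) and that of BTG2 in 5 of 14 (0.0140 to 0.221), while the direction of both was kept in all 14. Without any 1 of the 8 libraries BTG1 missed the threshold, and BTG2 passed only without the A375 6 h library or the A375/211 6 h library (edgeR adjusted p = 0.0419 and 0.0427).

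The slope of BTG1 was less steep in A375/211 than in A375 by 1.46 ± 0.36 per hour (log2, SE), which did not pass after adjustment (edgeR unadjusted p = 0.00432, adjusted p = 1). DESeq2 gave 1.48 ± 0.30 with an adjusted p of 0.00395. The other differences were 0.25 ± 0.46 for BTG2, 0.25 ± 0.24 for TOB1, -0.03 ± 0.27 for TOB2 and -0.04 ± 0.14 for BTG3. Their 95% intervals were -0.82 to 1.33, -0.32 to 0.81, -0.65 to 0.59 and -0.36 to 0.28. By edgeR 0 of the 5 passed, with 1 at an unadjusted p under 0.05 (BTG1), against 0% of all genes. By DESeq2 1 passed (BTG1), against 0.102% of all genes. The BTG1 value fell to 0.86 without the A375 3 h library and reached 2.25 without the A375 0 h library.

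Some transcripts overlap the genes. BTG1 shares 274 exonic bases with the antisense BTG1-DT, BTG3 shares 326 with BTG3-AS1 and TOB1 shares 281 with TOB1-AS1, which had at most 13, 9 and 5 counts in a BRIC-seq library. BTG1 also shares 503 exonic bases with LINC01619 on the same strand. LINC01619 had 26, 47, 59 and 9 counts over the chase in A375 and 80, 80, 58 and 8 in A375/211. In A375 it thus had more counts than BTG1 at 3 h (59 against 7) and at 6 h (9 against 0). In A375/211 at 3 h it had 58 counts against 142 of BTG1. At 0 h it had more counts in A375/211 than in A375 (80 against 26), as BTG1 did. How reads in the shared bases were assigned, and by which strand, is not given in the sources used here. The BTG1 values of both lines, the late ones in A375 among them, and the BTG1 differences between the lines carry that uncertainty. The part of LINC01619 reads in them was not tested.

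Labelled RNA at 0 h can be set beside total RNA as a ratio of CPM, whose median over all genes was 0.754 in A375 and 0.756 in A375/211. BTG2 had a ratio of 5.77 in A375, above 94.0% of genes, and 1.18 in A375/211, above 65.5%. TOB1 had 2.74 in A375 and 2.00 in A375/211, above 85.4% and 81.1%. BTG1 went the other way between the lines, with 0.451 in A375 and 1.20 in A375/211. BTG3 had 0.708 and 0.498, and TOB2 0.592 and 0.716, all near or below the median. The 2 tables were scaled separately, so these ratios are descriptions with no test.

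Across the 8 BRIC-seq libraries, TOB1 and TOB2 moved together, with a Pearson r of 0.980 in log2 CPM. BTG1 followed TOB1 (r = 0.881) and TOB2 (0.836), and BTG2 followed them as well (0.803 and 0.826). BTG1 and BTG2 were less alike (0.549), and BTG3 had r between -0.14 and 0.23 with the other 4. The libraries share the chase times, so genes lost at the same times correlate whatever else they share. Among 4293 genes whose log2 CPM averaged 5 or more, the courses most like TOB1 were those of IRF2BP2 (0.997), KLHL15 (0.997) and CCNT1 (0.994). Those most like TOB2 were FBXO30 (0.996), ZKSCAN8 (0.996) and IRF2BP2 (0.992). For BTG1 they were CHRNA7 (0.979), KCNQ1OT1 (0.971) and ZNF208 (0.969), for BTG2 IER3 (0.991), ZNF780B (0.981) and MT-ND1 (0.978), and for BTG3 NAA15 (0.971), GPR161 (0.971) and STARD7 (0.969).

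The genes that the BTG/TOB proteins work with did not all behave alike in the chase. Of 10 CCR4-NOT subunits tested, 5 fell in mean slope, 0 rose and 5 did not pass (median -0.17), against 9 and 10 that fell with total counts and with glycolytic messages as the scale. CNOT2 had -0.40 ± 0.05 (SE, with an edgeR adjusted p of 0.000154). The nuclease subunits CNOT6L and CNOT6 had -0.37 ± 0.05 and -0.34 ± 0.06, and CNOT8 had -0.40 ± 0.08 (edgeR adjusted p = 0.000311, 0.000841 and 0.00248). CNOT7, named here as the other deadenylase that the family binds and outside the naming rule, stood at -0.03 ± 0.03 (edgeR adjusted p = 0.367). All of these were less steep in value than TOB2.

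Of 6 genes for poly(A) binding proteins and the PAN2-PAN3 deadenylase, 5 rose, 0 fell and 1 did not pass (median 0.16), against 2 that rose and 1 that fell with total counts and 0 and 6 with glycolytic messages as the scale. PABPC1, which TOB1 and TOB2 bind, had 0.37 ± 0.02 (edgeR adjusted p = 3.45e-06) and PABPC4 0.25 ± 0.02, values that turned to -0.087 and -0.21 with glycolytic messages as the scale. Of 9 binding partners outside the complex, 8 fell and 1 rose (median -0.42). CPEB2, of the CPEB family that guides TOB1 to messages, had -0.68 ± 0.06, the homeobox factor HOXB9 -0.51 ± 0.07 and the signal transducer SMAD4 -0.34 ± 0.05. The arginine methyltransferase PRMT1 had 0.47 ± 0.07, and 0.017 with glycolytic messages as the scale.

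Of 10 regulators of G1, 4 rose, 2 fell and 4 did not pass (median -0.06), and with glycolytic messages as the scale 0 rose and 10 fell. RB1 had 0.28 ± 0.03 and CDK4 0.23 ± 0.03, which turned to -0.18 and -0.23 on that scale, while CCNE2 had -0.32 ± 0.06 and the inhibitor CDKN1B -0.67 ± 0.16.

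All 16 tested immediate early genes fell in mean slope (median -0.54), under each scaling run, with MYC at -0.84 ± 0.09, SGK1 at -0.59 ± 0.08, NR4A1 at -0.43 ± 0.07 and FOSL1 at -0.35 ± 0.06. From 1 to 3 h 14 of the 16 fell, 0 rose, and the median log2 difference was -2.52. Of all genes, 16.1% were called lower and 12.9% higher from 1 to 3 h. The 4 falling BTG/TOB genes had values between -3.81 and -3.22 at that step. The 16 are the part of a list of 25 that passed the filter on low counts. The lists were written with earlier results of these data known, and their counts are descriptions. In mean slope they stand beside 34.4% called lower and 29.9% called higher among all genes.

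**Figure D5:**
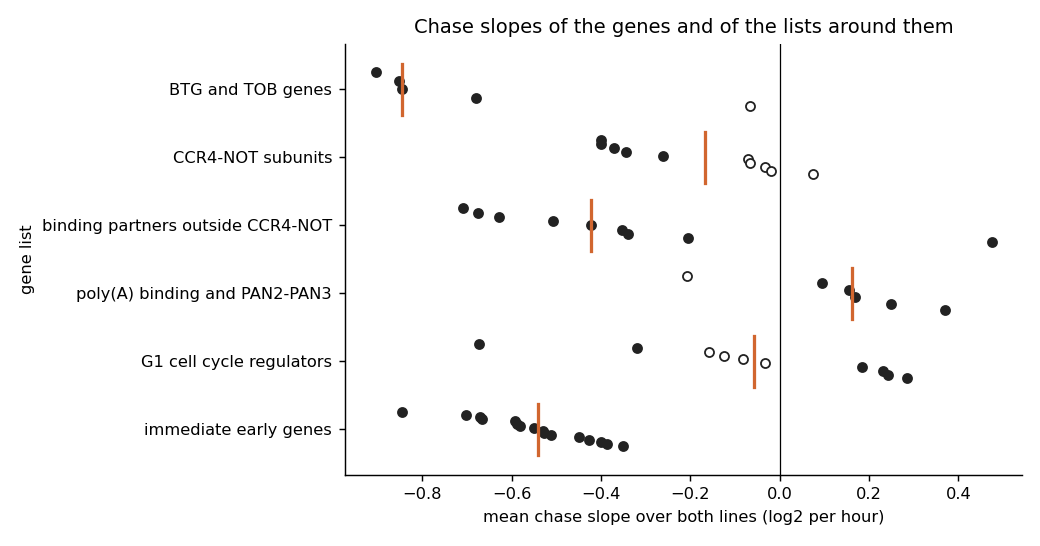
Mean chase slope over both lines (log2 per hour) of each tested gene, by gene list, with filled points for genes that passed the test across all genes, open points for those that did not, and a vertical bar at the median of each list. BTG1, BTG2, TOB1 and TOB2 lie between -0.90 and -0.68 and BTG3 at -0.07, beside medians of -0.17 for CCR4-NOT subunits and -0.54 for immediate early genes.

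None of these 5 lists had a member that passed between the lines in total RNA or in slope by edgeR. Over the 61 genes tested in RNA-seq, edgeR called 0, with 10 at an unadjusted p under 0.05 and 4 by DESeq2. Over the 51 tested in BRIC-seq, edgeR called 0 slope differences, with 1 at an unadjusted p under 0.05 and 0 by DESeq2. In labelled RNA at matched times, 2 of 10 CCR4-NOT subunits were lower in A375/211 and 0 higher, namely CNOT6 at -0.84 (edgeR adjusted p = 0.00885) and CNOT3 at -1.13 (0.0204), both named after their values were seen. Of the 9 other binding partners 1 was higher and 1 lower, and of the 10 G1 regulators 3 and 1. Of the 16 immediate early genes the counts were 2 and 2, and of the 6 poly(A) binding and PAN2-PAN3 genes 0 and 0. Over all genes tested, 13.6% were called higher and 12.3% lower in that fit, so 2 of 10 is near the background.

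Markers of other cell types also differed in labelled RNA. Of the 6 tested from the keratinocyte, fibroblast, leukocyte and endothelial lists, 4 were higher in A375/211 and 0 lower, namely LUM at 5.18 ± 0.50, KDR at 4.54 ± 0.42, CD68 at 2.53 ± 0.24 and LYZ at 2.35 ± 0.22, while KRT10 and PDGFRB did not pass (edgeR). Of the 8 tested melanocyte and melanoma markers 3 were higher and 1 lower. Over all genes tested, 13.6% were called higher and 12.3% lower in labelled RNA. In total RNA, 1 of the 8 melanocyte and melanoma markers tested there passed, against 0.379% of all genes in either direction. That marker, MITF, stood at -2.50 ± 0.20 (log2, SE), lower in A375/211 (edgeR adjusted p = 0.0448). All 5 fibroblast markers had counts in both lines in total RNA, with LUM at 4.27 and 5.53 CPM in A375 and 12.3 and 11.9 in A375/211. DCN and PDGFRB were also higher in A375/211, and COL1A1 stayed below 0.23 CPM. COL1A2 went the other way, at 17.1 and 50.9 CPM in A375 and 0.235 and 0.517 in A375/211. CD68 and LYZ, higher in labelled RNA, had log2 differences of -0.80 and -0.94 in total RNA, and KDR had 1.04. None of those tested passed there. KRT5, KRT1 and DSG3, PTPRC and CD3E, and PECAM1, CDH5 and CLDN5 were at 0, whereas KRT10, CD68, LYZ, KDR and VWF had counts in all 4 libraries and KRT14 in A375/211 alone. The summed level was 15.2 to 20.4 CPM in A375 and 16.8 to 18.3 in A375/211 for the keratinocyte list. It was 21.6 to 25.5 and 9.82 to 16.9 for the leukocyte list, 3.58 to 4.17 and 6.03 to 9.18 for the endothelial list, and 26.1 to 61.3 and 25.7 to 26.9 for the fibroblast list. Whether these differences have a part in the BTG1 and BTG2 values was not tested.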

How the data were processed

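RNA-seq and BRIC-seq were analysed in 12 libraries of 2 lines. The authors deposited read counts per gene, as whole numbers with no normalization, in 1 table per assay. Per the submitters' processing notes, reads were aligned with HISAT2 2.1.0 and StringTie was used. The notes name hg19 and the series' design text hg38, so coordinates are 1-based positions from GENCODE 44 (hg38), matched by gene ID (93.2% of rows gained a symbol). Per the labels' protocols, the library kit keeps strand. Whether counting used strand, and how multi-mapping reads were handled, is not given in the sources used here. The BRIC-seq table has 1 row that names no gene (at most 0.00122% of a library), which was left out.

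Counts were tested with edgeR 4.0.16 (R 4.3.3, TMM, filterByExpr by line with minimum count 10 and total 15, quasi-likelihood F test, Benjamini-Hochberg, threshold 0.05). The RNA-seq line difference and mean slope fits were also run on simulated counts, with a fixed dispersion and well counted changed genes. That simulation did not cover the other contrasts or changed genes with low counts. DESeq2 1.42.0 was an alternative. CPM values use TMM-scaled library sizes, and each SE is the absolute log2 value over the root of its F statistic. Models were line alone (RNA-seq, 2 residual degrees of freedom), a line and slope per line (4), line and hours (5), and line and time as factors (3). Alternatives changed the scaling, the filter, the tool, the libraries and the replicate block. BRIC-seq has 1 library per line and time, so its residual spread is around the model. The members and all lists (the 5 genes, BTG4, 5 surrounding lists, glycolytic messages and 5 sets of cell type markers) were chosen with earlier results of these data known. Of the glycolytic list, used as a scale, 11 of 12 tested genes rose in mean slope. All 5 genes were named. Of other lists, counts were given and at most the 4 genes with the smallest p for the mean slope, together with any that passed in RNA-seq or in the slope difference. For likeness, the 3 genes of highest r were named. All deposited value columns were used. Some further gene lists and sequence sites are not reported here.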

Additional observations from a re-analysis of the deposited data

How the results depend on the processing

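Over 610 recomputed values of the 5 genes, 517 kept their direction and side of the threshold, 42 fell below it, 11 passed it and 40 changed sign. None of those that changed sign had passed in the fit reported. BTG3 from 1 to 3 h passed after its change of sign, with glycolytic messages held constant. The cause of the changes was not tested unless stated. The 4 mean slope calls held in all 14 alternatives. With the replicate block (letters a and b as pairs, which the labels do not say) the RNA-seq count stayed at 0 of 5, BTG1 turned to -0.14, and 192 genes were called instead of 73. Over genes, the log2 ratios of a to b in the 2 lines had r = 0.34. Without a filter RNA-seq called 237 genes, and DESeq2 748.

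DESeq2 called 1 slope difference, and with glycolytic messages held constant 5 slopes passed in A375/211. The BTG3 slope passed in 1 of 14 alternatives in each line, with lowest values of -0.51 in A375 and -0.54 in A375/211. The labelled line difference kept 1 call with RLE scaling, 1 with mitochondrial genes removed, 1 with glycolytic messages held constant and 0 with no filter. From 3 to 6 h, 2 members passed with total counts and 3 with glycolytic messages. Held glycolytic messages gave labelled line differences of -0.13 for TOB1 and -0.088 for TOB2, 1 h against 0 h of -0.15 for TOB2, 3 h against 1 h of -0.69 for BTG3 and 6 h against 3 h of -1.08 for BTG2. Total counts gave -0.16 for TOB2 at 1 h against 0 h and -0.23 for BTG2 at 6 h against 3 h. The labelled line difference of BTG3 was 0.00072 with RLE and 0.0086 with DESeq2. TOB2 at 1 h against 0 h was -0.00054 with RLE and -0.000197 with DESeq2, and TOB1 was 0.17 with no filter. Total counts moved the median of all genes by -0.17 (0 to 1 h), -0.22 (1 to 3 h), -0.62 (3 to 6 h) and -0.10 (line difference), glycolytic messages by -0.16, -0.98, -1.49 and -0.44, and RLE scaling by 0.13 from 3 to 6 h.

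Leaving out 1 library at a time, a lone library being assumed to vary like the rest, members called ranged from 0 to 4 for the slope in A375, 0 to 4 for the slope in A375/211, 0 to 1 for the labelled line difference, 2 to 4 from 1 to 3 h and 0 to 1 from 3 to 6 h. RNA-seq differences ranged from -1.28 to 0.86 for BTG1 and -0.065 to 0.13 for TOB2. BTG3 ranged from -0.10 to 0.12 (slope in A375), -0.19 to 0.25 (slope in A375/211), -0.10 to 0.019 (mean slope), -0.14 to 0.076 (line difference) and -0.20 to 0.28 (slope difference). Slope differences ranged from -1.30 to 0.74 for BTG2, -0.017 to 0.57 for TOB1 and -0.42 to 0.48 for TOB2. From 0 to 1 h, BTG1 ranged from -1.44 to 0.52, TOB1 from -0.27 to 0.24 and TOB2 from -0.016 to 0.057. From 3 to 6 h, BTG1 ranged from -7.35 to 1.58 and BTG2 from -0.47 to 4.80. At 3 and 6 h the falling members had 0 to 32 counts except BTG1 in A375/211, so differences between the lines there were detectable only when large.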
